A study of Mus musculus with 20 samples.

Results

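The comparison described here is the response to a fast of livers described as lacking Mcl1, which encodes an anti-apoptotic protein of the BCL2 family. Its members were the 10 livers described as Mcl1(L-/-), 5 from fasted and 5 from fed mice, among 20 livers in the series, and the difference between them was read over all 22206 probe sets of an Affymetrix array. The genotype is called Mcl1KO below. Mcl1KO mice carried a floxed gene, Mcl1(F/F), and received AAV-LP1-Cre, an adeno-associated virus in which LP1, a promoter active in hepatocytes, drives Cre recombinase. Other liver cells are therefore not the intended target of the deletion. Fed mice ate freely. Fasted mice were caged singly on wire floors with water but no food, and their livers were taken at 48 h. Where fed mice were housed otherwise, an effect of that housing cannot be told apart from one of food withdrawal. The 10 WT livers, 5 fed and 5 fasted under the same regime, serve here as the comparison. The labels used here do not state which virus WT mice received, if any, or the age, sex and strain of the mice. A reaction to the virus or to Cre that depends on feeding cannot be told apart from an effect of the deletion. The 5 samples of a group are described as biological replicates, and each was 1 array.

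During a fast the liver turns from storing fuel to supplying it. Insulin falls while glucagon and glucocorticoids rise, and fatty acids released by adipose tissue reach the hepatocyte. There they activate the nuclear receptor PPARα, whose targets carry fatty acids into mitochondria and peroxisomes and break them down for ATP and ketone bodies. The sterol regulatory element-binding proteins (SREBPs), which drive cholesterol and fatty acid synthesis in the fed state, lose activity, and amino acids are drawn into glucose and urea.

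Transcript of Mcl1 was lower in all 10 Mcl1KO livers than in any WT liver, but stayed above the array medians of 3.35 to 3.47. The fed Mcl1KO arrays gave log2 signals of 6.24, 5.83, 6.05, 6.17 and 6.14 and the fasted ones 6.18, 6.19, 5.88, 5.94 and 6.50. Fed WT livers lay at 7.25 to 7.60 and fasted WT livers at 7.16 to 7.41 for Mcl1, above every Mcl1KO liver. Fasting itself left Mcl1 within the spread of the replicates (log2 difference 0.05, SE 0.12, limma adjusted p = 0.863). Markers of hepatocytes were bright and even, with a mean log2 level over 15 genes of 11.21 to 11.26 in fed and 11.22 to 11.27 in fasted Mcl1KO livers. Markers of lymphocytes (16 genes, 2.49 to 2.76) and of exocrine pancreas (11 genes, 2.97 to 3.43) lay near the floor of the array in the same livers.

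Fasted Mcl1KO livers were less alike than fed ones. Arrays correlated at r = 0.985 to 0.990 within the fed and 0.979 to 0.987 within the fasted Mcl1KO group, over all probe sets. On the first principal component of the 10 Mcl1KO arrays, which held 46.9% of the variance, fed livers lay between -33.9 and -27.5. Fasted livers 1, 2 and 5 lay at 36.9, 43.4 and 39.2, but liver 3 at 11 and liver 4 at 20.4. These 2 livers stood apart for part of the response only. Among the probe sets that changed with fasting, replicate 3 was the fasted liver nearest to the fed mean in 44.0% and replicate 4 in 24.2%, against 9.29% to 13.1% for each of the others and 20% if livers took equal shares. Counts below are therefore also given without replicates 3 and 4 where that matters, a choice made after the data were seen. Because these livers were picked as nearest to the fed ones, leaving them out tends to enlarge differences by construction. A call gained that way is not independent support for a response.

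Limma called 3208 of 22206 probe sets (14.4%) at an adjusted p under 0.05, from a fit to all 20 arrays. Of these, 1821 were higher in fasted Mcl1KO livers (8.2% of all probe sets) and 1387 lower (6.25%). Among the 9215 probe sets with a mean log2 signal of at least 4, the shares were 17.5% and 12.3%. "Rose" and "fell" are used below only for such calls, and a fold is 2 raised to the log2 difference. Counts of a gene list are to be read against 8.2% and 6.25% of all probe sets and 17.5% and 12.3% of these bright ones. A list near those shares is not set apart from other probe sets. At least 2-fold changes were fewer on the rising side, 281 (1.27%), than on the falling side, 387 (1.74%). The median log2 difference over all probe sets was 0.00. Without fasted replicates 3 and 4 limma called 3633 probe sets.

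Hsd3b5 and Car3 had the largest falls. Hsd3b5, a hydroxysteroid dehydrogenase of male liver, gave 9.60, 8.60, 9.74, 9.85 and 9.60 with food and 3.79, 4.22, 3.92, 3.56 and 3.70 after the fast. Car3, a carbonic anhydrase abundant in male liver and in fat, lay between 10.55 and 10.66 in the 5 fed livers and fell to 5.89, 3.29, 6.41, 5.01 and 4.60. Fed livers were thus nearly identical for Car3, and the fasted ones spanned a wide range far below them. Cyp1a2, a cytochrome that oxidises caffeine, fell from 10.88 to 11.21 in fed livers to 5.74 to 7.64 in fasted livers (log2 difference -4.14, SE 0.25, adjusted p = 1.41e-10). Other genes among the 20 largest falls were Serpina6, which encodes the corticosteroid carrier of plasma, at 9.48-fold, the carbonic anhydrase gene Car1 at 9.7-fold, Keg1 at 8.11-fold and Nxpe2 at 8.39-fold.

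**Figure D1:**
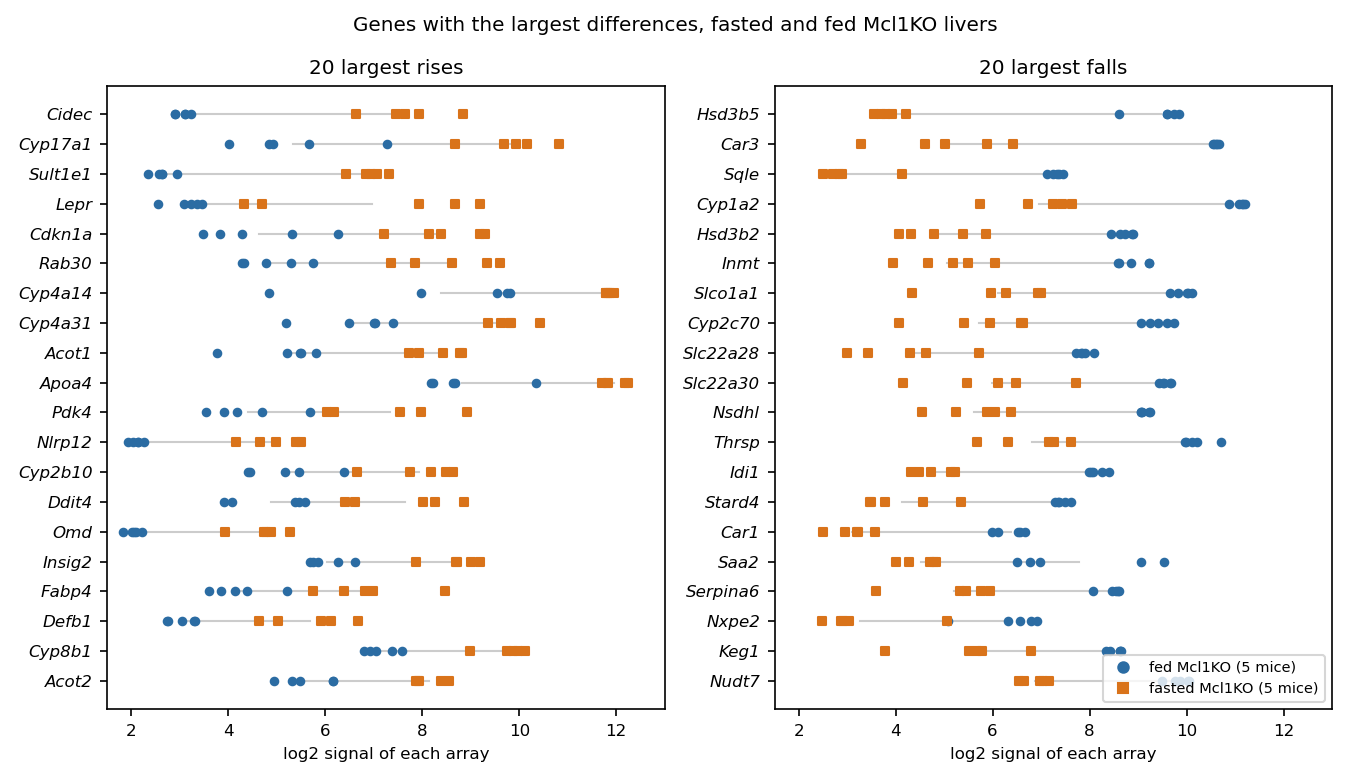
Log2 signal of each Mcl1KO liver (x axis) for the 20 called genes with the largest rise (left) and the 20 with the largest fall (right) whose fed and fasted arrays do not overlap. Circles are the 5 fed and squares the 5 fasted livers, and grey lines join the group means. Hsd3b5 and Car3 fell by 5.64 and 5.56 on the log2 scale, and Cidec rose by 4.66 from fed signals of 2.89 to 3.22.

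Cidec led the rises. It encodes a protein that makes lipid droplets fuse and grow, and its signal went from 3.22, 3.11, 2.90, 2.89 and 3.10 in fed livers to 7.65, 8.84, 6.64, 7.93 and 7.46 in fasted livers. Sult1e1, the oestrogen sulfotransferase, went from 2.35 to 2.94 up to 6.42 to 7.31. For both genes every fasted liver stood far above every fed one. Their fed signals lay near the floor of the array, so these rises may be understated and their sizes cannot be set against those of the falls. Cyp17a1, a steroid hydroxylase, spread more widely with food, at 5.67, 7.27, 4.92, 4.83 and 4.02, and reached 10.16, 9.68, 9.94, 10.81 and 8.68. The other large rises included Cdkn1a, a brake on the cell cycle (14-fold), the small GTPase gene Rab30 (12.7-fold), the apolipoprotein gene Apoa4 (8.82-fold), the pattern receptor gene Nlrp12 (7.19-fold), Omd (6.4-fold) and the antimicrobial peptide gene Defb1 (6.26-fold).

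Lepr, the leptin receptor gene, rose in all 5 fasted livers but to very different heights. Fed livers gave 2.54, 3.36, 3.22, 3.09 and 3.45. Fasted replicates 1, 2 and 5 gave 7.93, 9.19 and 8.68, whereas replicates 3 and 4 gave 4.69 and 4.33, just above the fed range (log2 difference 3.83, SE 0.66, adjusted p = 0.000188). The same 2 livers lay with the fed ones for other genes that the fast moved. The plot of single livers sets such genes beside Hsd3b5 and Fkbp5, for which all 5 fasted livers agreed within their spread. These genes were picked for display after their values were seen.

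**Figure D2:**
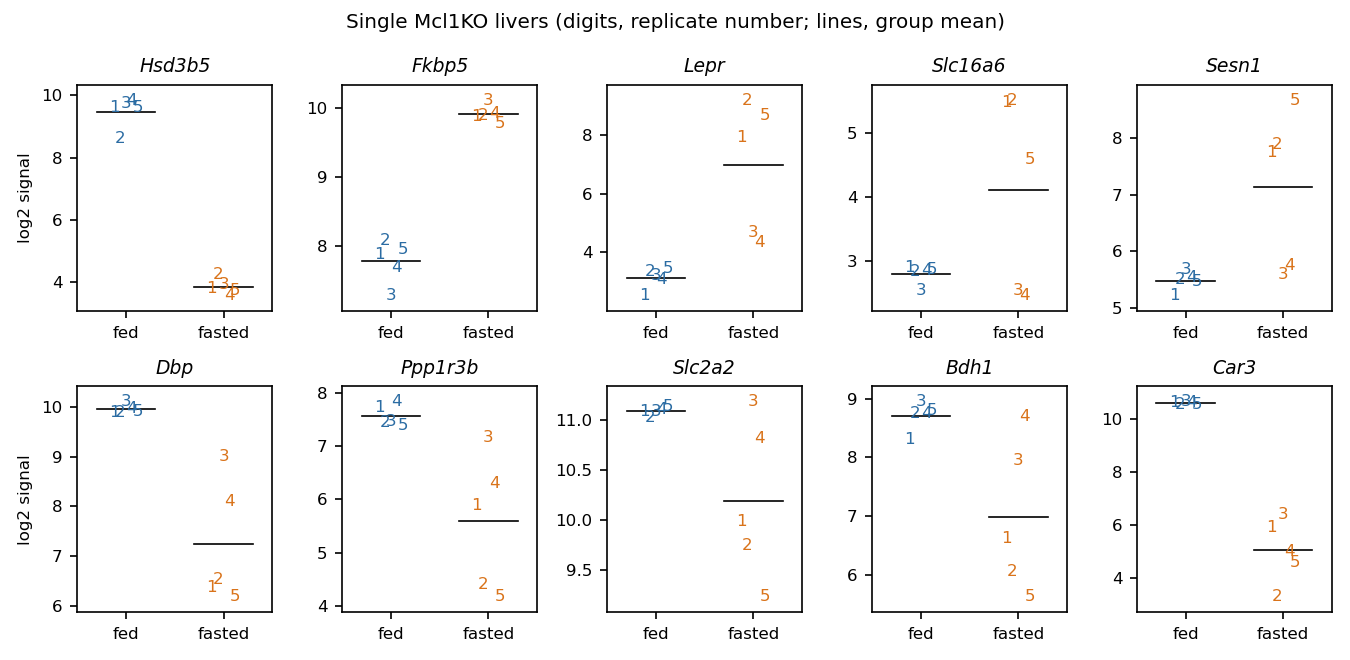
Log2 signal (y axis, scaled for each gene) of fed and fasted Mcl1KO livers for 10 genes, with each liver drawn as its replicate number and a line at each group mean. Fasted livers 3 and 4 sit near or within the fed range for Lepr, Slc16a6, Sesn1, Slc2a2 and Bdh1, and with the other fasted livers for Hsd3b5 and Fkbp5.

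Genes for the entry of fatty acids into mitochondria rose. All 5 genes of the carnitine shuttle were called higher: Slc22a5, the carnitine importer of the plasma membrane, Cpt1a and Cpt1b, the outer-membrane palmitoyltransferases, the translocase gene Slc25a20 and Cpt2. Cpt1a, the hepatic form, gave 8.73, 9.06, 8.86, 9.01 and 9.11 with food and 10.06, 9.72, 9.89, 9.91 and 9.93 after the fast. Its fed and fasted livers did not overlap, and replicates 3 and 4 were no lower than the rest (1.93-fold, SE of the log2 difference 0.11, adjusted p = 1.11e-06). Of the 14 measured enzymes inside mitochondria, 8 rose and 0 fell, with a median log2 difference of 0.58. They included Acadm, the medium-chain acyl-CoA dehydrogenase (2.09-fold), Hadhb of the trifunctional protein (1.96-fold) and Etfdh, which passes the electrons on to the respiratory chain (1.86-fold). Cpt2 had the smallest log2 difference of the shuttle genes, 0.46 (adjusted p = 0.0111), and its call was lost without fasted replicates 3 and 4 (0.30, adjusted p = 0.137). Over the whole list, 13 of 19 genes rose and 0 fell, against 8.2% and 6.25% of all probe sets.

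Peroxisomes and the endoplasmic reticulum, shorten and oxidise the fatty acids that mitochondria take poorly. Ehhadh, the bifunctional enzyme of peroxisomal oxidation, went from 8.56, 9.71, 9.23, 9.03 and 9.18 to 11.14, 11.20, 10.75, 11.12 and 11.41. Crat, which hands acetyl groups to carnitine, rose 4.88-fold, and Pex11a, which divides peroxisomes, rose 2.33-fold. In this list of 18 genes 9 rose and 3 fell. The count of rises was 6 to 8 when each Mcl1KO liver was left out in turn, and 7 without fasted replicates 3 and 4. The falls were those of Nudt7, a peroxisomal hydrolase that breaks down coenzyme A (7.81-fold), Pecr, a trans-enoyl-CoA reductase (1.86-fold), and Amacr, which racemises branched-chain acyl-CoAs (1.56-fold). The probe set used for Nudt7 gave 9.50 to 10.05 with food and 6.55 to 7.17 after the fast. The size of its fall depends on the probe set, as the log2 differences of its 3 probe sets were -2.96, -3.18 and -1.05.

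The ω-hydroxylases Cyp4a10, Cyp4a14 and Cyp4a31 approached the top of the array's range in fasted livers. Cyp4a14 gave 11.78, 11.84, 11.88, 11.95 and 11.79 after the fast. With food it gave 4.84, 9.54, 9.80, 7.98 and 9.74. The fasted livers were thus nearly identical, and the fed ones spread widely with replicate 1 far below the rest (log2 difference 3.47, SE 0.61, adjusted p = 0.000267). Cyp4a10 likewise went from 7.61 to 10.42 up to 11.96 to 12.02. Genes of this family share much sequence, and their probe sets may not separate them fully. Acyl-CoA thioesterases release fatty acids from coenzyme A in mitochondria, cytosol and peroxisomes, and 4 of those measured are described here, all of which rose. Acot5, Acot8 and Acot12 were also measured and are counted only in the joint list below. Acot1 rose 9.04-fold, Acot2 5.77-fold, Acot4 2.37-fold and Acot3 3.21-fold. The call of Acot3 was lost without fed replicate 1, fed replicate 3 or fasted replicate 3, with log2 differences of 1.22, 1.62 and 1.37. In the opposite direction, Cyp4f14 fell 4.92-fold, from 9.60 to 9.75 in fed livers to 6.35 to 8.17 in fasted livers. Hydroxylases and thioesterases together had 10 of 15 members higher and 2 lower, or 1 lower without fasted replicates 3 and 4.

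Ketone body genes were divided. Slc16a1, a monocarboxylate transporter that exports ketone bodies, rose 1.81-fold without overlap, from 6.05 to 6.62 with food to 6.92 to 7.48. Slc16a6, the ketone exporter of hepatocytes, gave 5.48, 5.52 and 4.59 in fasted replicates 1, 2 and 5 but 2.53 and 2.46 in replicates 3 and 4, where fed livers lay at 2.54 to 2.90. Its call (adjusted p = 0.0407) was lost when any liver other than fasted replicate 3 or 4 was left out, with log2 differences of 0.97 to 1.34. Bdh1, which makes β-hydroxybutyrate from acetoacetate, fell 3.3-fold on average, from 8.31 to 8.95 with food to 6.61, 6.06, 7.95, 8.70 and 5.62. Replicate 4 was thus not lowered for Bdh1 at all. Of the 8 measured ketogenesis genes 4 rose and 2 fell, the other being Ppara itself (1.65-fold, adjusted p = 0.0283). The call of Ppara was lost without fed replicate 3, 4 or 5 or fasted replicate 1, 2 or 5, with log2 differences of -0.71 to -0.56. Fgf21, a hormone of the fasting liver and a PPARα target, was not called (log2 difference 1.11, SE 0.43, adjusted p = 0.0887). Its fasted signals were 2.60, 3.14, 4.16, 6.35 and 2.77 against 2.41 to 2.87 with food, so that only replicates 3 and 4 and, narrowly, replicate 2 exceeded the fed range. Fgf21 was called without fasted replicate 1 (log2 difference 1.41) or fasted replicate 5 (1.37).

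Genes of cholesterol synthesis fell almost without exception. The pathway condenses acetyl units to mevalonate, builds farnesyl diphosphate and squalene, and then closes and trims the sterol rings. Of its 16 measured genes 15 fell, 14 of them without overlap between fed and fasted livers (4.37% of all probe sets), and the median log2 difference was -1.79. All 6 genes from Hmgcs1 to Fdps fell (median -2.11), as did 9 of the 10 from squalene onward (median -1.79). Hsd17b7, a sterol ketoreductase, was the member not called (log2 difference -0.16, adjusted p = 0.771).

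Sqle, the squalene epoxidase that controls flux through the later arm, gave 7.32, 7.46, 7.37, 7.12 and 7.24 with food and 2.83, 2.89, 4.14, 2.71 and 2.51 after the fast. Nsdhl, which removes a methyl group from the sterol ring, went from 9.07 to 9.25 down to 5.25, 6.05, 6.38, 5.88 and 4.55. Idi1, an isomerase of the mevalonate arm, went from 7.98 to 8.40 down to 4.31 to 5.23. Fasted replicate 3 kept the highest signal of the 5 for each of these genes and still lay far below the lowest fed liver. Medians over the whole list, relative to the fed mean, were -2.15, -1.95, -1.41, -1.77 and -2.32 in the 5 fasted livers.

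Genes that sense sterols moved in both directions. Insig1, which holds SREBP in the endoplasmic reticulum and is itself an SREBP target, fell 6.82-fold, while its homologue Insig2 rose 6.35-fold, from 5.69 to 6.61 up to 7.87 to 9.18. Srebf2, the gene of the sterol-regulated SREBP, fell 1.75-fold, and Stard4, a cytosolic cholesterol carrier, 9.81-fold. The hepatic exporters of cholesterol to bile, Abcg5 and Abcg8, fell 1.82-fold and 1.76-fold. Mylip, whose product marks the LDL receptor for degradation, rose 2.13-fold.

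The sequence below is shown because Hmgcs1, an early enzyme of the pathway, was the only member in the promoter table with the searched form of the sterol regulatory element in its first 250 upstream bases. It is the RefSeq window on GRCm38.p6 at chr13:119690101-119690350, plus strand, 5′ to 3′, with the matching letters in capitals, which begin 137 bases before the annotated start.
Hmgcs1: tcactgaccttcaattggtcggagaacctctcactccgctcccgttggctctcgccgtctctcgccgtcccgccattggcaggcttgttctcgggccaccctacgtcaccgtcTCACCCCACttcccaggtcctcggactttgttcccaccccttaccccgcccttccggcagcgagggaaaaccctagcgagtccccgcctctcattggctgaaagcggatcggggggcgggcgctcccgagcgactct
The letters searched, on both strands, were TCACNCCAC, and 331 of 27025 genes (1.22%) hold them. Promoters were at hand for 13 of the 16 cholesterol genes, and 1 held a match. The signal of Hmgcs1 went from 10.05, 10.16, 10.17, 9.84 and 10.07 to 7.01, 7.40, 8.19, 7.79 and 6.59, a 6.34-fold fall, but 11 of the 12 genes without these letters fell as well.

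Genes of fatty acid synthesis mostly fell too. Their list had 13 of 19 members lower and 1 higher, with a median log2 difference of -1.23. Thrsp, a regulator of lipogenic enzymes also known as Spot 14, gave 10.70, 10.11, 9.96, 10.22 and 9.99 with food and 7.27, 6.32, 7.17, 5.67 and 7.61 after the fast. Its paralogue Mid1ip1 fell 5.53-fold, the elongase gene Elovl6 6.76-fold and the desaturase gene Scd1 6.87-fold. Elovl5, an elongase of polyunsaturated fatty acids, was the single rise, from 8.79 to 9.47 up to 10.06 to 10.56 (2.28-fold).

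Of 14 genes of triglyceride synthesis 5 rose and 2 fell, or 1 fell without fed replicate 1, 3 or 5 or fasted replicate 1, 2 or 5. Lpin1, a phosphatidate phosphatase that also coactivates PPARα, rose 3.21-fold and Dgat1, which esterifies diacylglycerol, 2.34-fold, whereas Dgat2 fell 1.47-fold. Pnpla2, the adipose triglyceride lipase, gave 7.79, 8.17, 8.16, 7.91 and 8.11 with food and 10.30, 10.43, 9.47, 9.67 and 10.40 after the fast. Of 20 lipid droplet genes 7 rose and 1 fell, or 2 fell without fed replicate 2. The rises included the coat proteins Plin5 (4.24-fold) and Plin2 (2.22-fold). Hilpda, an inhibitor of that lipase, rose 2.17-fold, although fasted replicate 3 (4.06) lay within the fed range of 3.08 to 4.07.

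Of 16 genes for the uptake and activation of fatty acids 5 rose, 4 fell and 7 were not called, with a median log2 difference of 0.09. Cd36, the scavenger receptor that takes up fatty acids, rose 3.93-fold, the transporter gene Slc27a1 4.97-fold and Fabp4, the fatty acid carrier of adipocytes and macrophages, 6.27-fold. Fabp1, the abundant carrier of hepatocytes, fell 2.81-fold, from 10.59 to 10.88 down to 8.47, 9.32, 10.01, 9.92 and 8.64, and Fabp5 fell 2.3-fold. Adipoq, which encodes the adipocyte hormone adiponectin, lay at 2.04 to 2.58 with food and 1.94 to 2.59 after the fast. Of 12 adipocyte markers 2 rose, Cidec and Fabp4, and Car3 fell (2 fell without fed replicate 2). The median log2 difference of the markers was 0.02, and the mean log2 level of the list was 3.93 to 4.06 in fed and 4.01 to 4.34 in fasted livers.

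Genes of glucose supply rose in part. Got1, an aspartate aminotransferase that feeds carbon to gluconeogenesis, went from 8.96, 9.14, 8.59, 8.79 and 8.91 to 11.65, 11.15, 10.63, 10.59 and 11.18. Slc37a4, the transporter of glucose 6-phosphate, rose 2.48-fold, Ppargc1a, a coactivator of the fasting programme, 3.12-fold and the pyruvate carboxylase gene Pcx 1.73-fold. Pck1 and G6pc, the classical enzymes of the pathway, were not called, with log2 differences of 0.13 (adjusted p = 0.501) and -0.13 (adjusted p = 0.799). Pck1 was bright in both states, at 11.04 to 11.36 with food and 11.13 to 11.51 after the fast. In all, 7 of 15 gluconeogenesis genes rose and 1 fell. The fall was that of Slc2a2, the glucose transporter of hepatocytes (1.86-fold, adjusted p = 0.00816). Its fed livers lay at 11.02 to 11.13 and fasted livers at 9.98, 9.74, 11.18, 10.81 and 9.23, with replicate 3 not lowered.

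Of 16 genes of glycolysis and glucose use 2 rose, 3 fell and 11 were not called, with a median log2 difference of -0.03. Rises were no more frequent than the 17.5% of bright probe sets. Pdk4, the kinase that shuts off pyruvate dehydrogenase, rose 7.65-fold, from 3.54, 4.69, 3.90, 4.17 and 5.68 to 7.97, 8.93, 6.03, 6.18 and 7.54. Ldha, a lactate dehydrogenase subunit, rose 1.32-fold (adjusted p = 0.0357), and its call was lost without fed replicate 1, 3, 4 or 5 or fasted replicate 2, 3 or 4, with log2 differences of 0.35 to 0.41. Pfkfb3, which makes the activator of phosphofructokinase, fell 3.46-fold. Glucokinase regulatory protein, encoded by Gckr, fell 1.72-fold. Of 14 glycogen genes 5 fell and 1, the phosphoglucomutase gene Pgm2, rose. Ppp1r3b and Ppp1r3c, which tether protein phosphatase to glycogen and so switch on its synthesis, fell 3.97-fold and 2.94-fold. Ppp1r3b lay at 7.40 to 7.84 with food and at 5.89, 4.41, 7.17, 6.30 and 4.17 after the fast, so replicates 3 and 4 were again the least lowered.

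Amino acids are deaminated during a fast, and their nitrogen leaves as urea. Asl, the argininosuccinate lyase, gave 9.12, 9.32, 9.07, 9.27 and 9.21 with food and 11.23, 10.72, 10.63, 10.73 and 11.13 after the fast. Arg1, which releases urea, rose 1.87-fold, while Otc, the ornithine transcarbamylase, fell 1.6-fold (adjusted p = 0.0183). The call of Otc was lost without fasted replicate 2 (log2 difference -0.46) or 5 (-0.56). In the urea cycle 4 of 8 genes rose and 1 fell. Among 24 genes of amino acid breakdown 9 rose and 2 fell. Gpt2, a mitochondrial alanine aminotransferase, rose 2.49-fold, the lysine-degrading Aass 2.34-fold, Cth, which makes cysteine, 2.12-fold, and the histidine-degrading Hal 1.92-fold.

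Genes of methyl transfer moved in both directions. Bhmt, which remakes methionine with betaine, rose 2.65-fold and Nnmt, which methylates nicotinamide, 2.66-fold. Inmt, an indolethylamine methyltransferase, fell 14.2-fold, from 8.58 to 9.23 down to 4.67, 3.95, 6.05, 5.49 and 5.18, and Gamt, the last enzyme of creatine synthesis, 3.87-fold. Of the 17 genes in this list 6 rose and 3 fell, or 5 fell without fasted replicates 3 and 4.

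Of 17 genes of bile acid synthesis 3 rose and 4 fell, or 2 fell without fed replicate 1. The share of rises was near the 17.5% of bright probe sets. Cyp8b1, which 12-hydroxylates the precursor of cholic acid, gave 6.79, 6.93, 7.05, 7.38 and 7.58 with food and 9.97, 9.88, 9.75, 8.98 and 10.11 after the fast. Cyp2c70, which makes the muricholic acids of mice, fell 12.9-fold, from 9.06 to 9.75 down to 4.07 to 6.62. Cyp39a1, an oxysterol hydroxylase, rose 4.65-fold. Cyp7a1, the rate-limiting enzyme, was not called (log2 difference 0.46, adjusted p = 0.464), and Nr0b2, the corepressor SHP that restrains it, fell 2.94-fold. The export pump gene Abcb11 fell 2.5-fold and the phospholipid floppase gene Abcb4 rose 1.75-fold.

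Of 20 transporters 10 fell and 3 rose, the share of rises being no higher than the 17.5% of bright probe sets. Slco1a1, an organic anion carrier of male liver, went from 9.65 to 10.11 down to 6.28, 5.97, 6.93, 4.34 and 6.99, while its neighbour in the family Slco1a4 rose 4.87-fold. Slc22a28 and Slc22a30 fell 12.7-fold and 11.9-fold. Conjugating enzymes had 17 of 26 members lower and 4 higher, with a median log2 difference of -0.81. Ugt2b1, a glucuronosyltransferase, fell 6.92-fold, and the glutathione transferases Gstm3, Gstm6 and Gsta4 fell 5.68-fold, 5.06-fold and 3.49-fold. Members of these families are similar in sequence, and signal may be shared among them.

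The 4 conjugating enzymes that rose were 3 sulfotransferases and the glutathione transferase gene Gstt2 (1.82-fold). Besides Sult1e1, Sult1d1 rose 2.86-fold, from 8.70 to 9.20 up to 10.26 to 10.80, and Sult1a1 2.01-fold, while 3 other sulfotransferases were among the falls. Xenobiotic cytochromes were mixed, with 4 of 24 higher and 7 lower. Their share of rises was near the 17.5% of bright probe sets. Cyp2b10, the standard target of the receptor CAR, rose 6.79-fold, with 4.44, 4.41, 5.46, 5.17 and 6.38 in fed and 8.63, 8.18, 6.66, 7.74 and 8.48 in fasted livers. Fed replicate 5 and fasted replicate 3 nearly met.

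Male-biased and steroid-metabolising genes fell in 15 of 20 members and rose in 1, Cyp17a1. Hsd3b2 fell from 8.44 to 8.90 down to 4.06 to 5.86, and Hsd3b3 fell 5.62-fold. Akr1c14, a reductase of steroid hormones, fell 4.52-fold. The male pattern of liver expression depends on pulses of growth hormone, whose receptor gene Ghr fell from 10.65, 10.50, 10.72, 10.68 and 10.74 to 9.49, 8.86, 9.80, 9.32 and 9.12 (2.53-fold, SE of the log2 difference 0.13, adjusted p = 1.13e-07).

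Other genes of the growth hormone axis went both ways. Igfals, which holds IGF-1 in plasma, fell 2.85-fold, with fasted replicate 3 (6.67) at the lowest fed level. Socs2, a feedback inhibitor of the receptor, rose 4-fold, from 4.45, 5.99, 5.54, 6.14 and 5.17 to 7.90, 7.45, 6.48, 6.48 and 9.0. Cux2, a factor of female liver, rose 2.67-fold. Igf1 itself, the product that growth hormone drives, was not called (log2 difference 0.12, SE 0.09, adjusted p = 0.454). The binding protein genes Igfbp1 and Igfbp2 rose 2.96-fold and 2.36-fold, the first only with fed replicate 4 in the fit (log2 difference 1.28 without it). In this list 5 of 17 genes rose and 3 fell.

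Genes of the proteasome rose for nearly all of its constitutive subunits. This complex degrades ubiquitin-tagged proteins in a barrel-shaped core capped by a regulatory particle that unfolds the substrate. All 17 measured subunits of the regulatory particle rose, with log2 differences from 0.33 to 1.11, and 10 of 13 constitutive subunits of the core rose, with none lower. Psma1, Psma4 and Psmb1 were not called, at log2 differences of 0.32, 0.26 and 0.26 (adjusted p = 0.174, 0.139 and 0.121). Psmd4, a ubiquitin receptor of the cap, gave 7.21, 7.61, 7.43, 7.61 and 7.41 with food and 8.69, 8.70, 8.18, 8.34 and 8.89 after the fast. The ATPase gene Psmc1 rose 1.97-fold, from 7.13 to 7.68 up to 8.22 to 8.56.

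Sizes were modest but even. The median over the 30 constitutive subunits, relative to the fed mean, was 0.58, 0.57, 0.46, 0.63 and 0.64 in the 5 fasted Mcl1KO livers and -0.04 to 0.08 in the fed ones. The count of 27 of 30 stands against 8.2% of all probe sets and 17.5% of bright ones. It was 22 without fasted replicate 4 and 23 without fasted replicates 3 and 4.

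The 3 catalytic subunits of the immunoproteasome moved the other way. Under interferon they take the place of constitutive ones so that the core cuts peptides for antigen presentation. Psmb10 gave 6.05, 6.24, 6.34, 6.12 and 5.93 with food and 4.48, 4.15, 3.88, 4.67 and 4.88 after the fast (log2 difference -1.73, SE 0.15, adjusted p = 1.95e-08). Psmb8 fell 2.39-fold and Psmb9 1.79-fold. None of the 3 overlapped between fed and fasted livers.

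**Figure D3:**
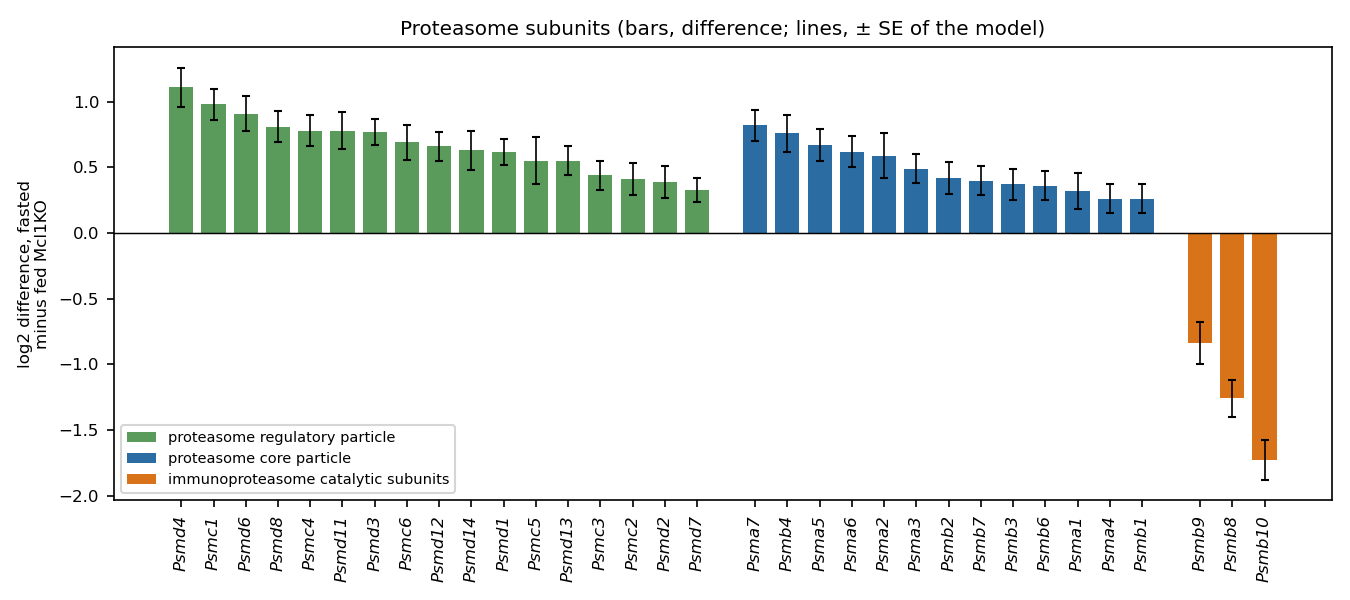
Log2 difference between fasted and fed Mcl1KO livers (y axis, 5 livers per group) for 33 proteasome subunits, with the SE of the model as error bars. The 17 regulatory and 13 constitutive core subunits lie above 0, from 0.26 to 1.11, and Psmb9, Psmb8 and Psmb10 below it, from -0.84 to -1.73.

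Interferon-stimulated genes fell as a group. Of 27 measured members 16 fell and 0 rose, with a median log2 difference of -0.74. Bst2, a tether of enveloped viruses, gave 8.98, 8.60, 8.41, 8.53 and 8.66 with food and 6.92, 6.40, 7.06, 7.26 and 6.56 after the fast. Irf7, which amplifies interferon production, fell 2.93-fold, Ifit3, an inhibitor of translation of viral RNA, 2.69-fold, and Stat2, a part of the factor ISGF3 that interferon activates, 2.4-fold. Isg15, a ubiquitin-like modifier, was dim in all livers, at 3.09 to 3.27 with food and 2.01 to 2.69 after the fast.

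Promoters of 3 of these genes are shown to set out the element that ISGF3 binds, the interferon-stimulated response element. All 3 are among the genes that hold a match to it. They are RefSeq windows of 250 bases before the annotated start on GRCm38.p6, written 5′ to 3′ along the gene with the matching letters in capitals. Ifit3 lies at chr19:34583279-34583528 (plus strand), Stat2 at chr10:128270248-128270497 (plus strand) and Isg15 at chr4:156200819-156201068 (minus strand).
Ifit3: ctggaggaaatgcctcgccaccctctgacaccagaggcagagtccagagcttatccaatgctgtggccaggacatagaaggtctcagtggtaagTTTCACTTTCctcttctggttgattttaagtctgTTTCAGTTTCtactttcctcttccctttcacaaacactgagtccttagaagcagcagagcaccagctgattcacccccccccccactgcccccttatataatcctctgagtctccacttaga
Stat2: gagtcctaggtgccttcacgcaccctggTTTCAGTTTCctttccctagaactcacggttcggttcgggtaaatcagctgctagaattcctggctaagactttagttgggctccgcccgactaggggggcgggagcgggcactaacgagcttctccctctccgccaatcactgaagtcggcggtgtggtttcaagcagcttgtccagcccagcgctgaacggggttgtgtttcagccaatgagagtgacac
Isg15: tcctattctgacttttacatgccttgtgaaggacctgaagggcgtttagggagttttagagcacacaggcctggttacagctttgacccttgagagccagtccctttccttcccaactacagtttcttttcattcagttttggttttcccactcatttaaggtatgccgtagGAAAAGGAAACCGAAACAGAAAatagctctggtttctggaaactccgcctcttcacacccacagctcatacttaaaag
The letters searched, on both strands, were GAAA, any 2 bases and GAAA again. The Ifit3 window holds 2 matches, the Stat2 window 1 and the Isg15 window 3 that overlap. A match was held by 11 of the 20 interferon-stimulated genes with a promoter window (55%), against 936 of 27025 genes in all (3.46%). In this window 7 of the 11 genes with a match fell, and 5 of the 9 genes without one.

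Genes of antigen presentation, a list that also holds the 3 immunoproteasome subunits, were lower in 11 of 18 cases and higher in 0, and all 18 log2 differences were negative. Of the 5 measured genes of MHC class II or its loading 4 fell. H2-Aa, a class II chain, gave 5.91, 6.76, 6.86, 6.56 and 7.07 with food and 5.13, 5.26, 4.90, 5.48 and 5.26 after the fast. H2-Ab1 fell 2.38-fold. Class I genes moved less, with a median log2 difference of -0.18 over 6 genes, of which 2 fell. Class II genes are expressed mainly by macrophages, dendritic cells and B cells. The mean log2 level of 14 Kupffer cell markers was 5.62 to 5.94 with food and 5.27 to 5.94 after the fast, and its part in the fall was not tested. In a bulk liver sample, fewer cells of a type and less RNA per cell cannot be told apart.

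Ribosome biogenesis rose in 21 of 37 genes and fell in 0, with a median log2 difference of 0.53. These nucleolar factors transcribe and process ribosomal RNA. Ddx21, an RNA helicase of the nucleolus, gave 6.24, 6.21, 6.54, 6.42 and 6.31 with food and 7.47, 7.76, 6.88, 7.34 and 7.73 after the fast. Rrp1b rose 2.61-fold, Nop58, a core protein of the particles that methylate ribosomal RNA, 2.08-fold, and Heatr1, which acts in the first processing steps, 2.02-fold. The medians of the list in fasted livers were 0.42, 0.51, 0.20, 0.61 and 0.57 relative to the fed mean, lowest in replicate 3.

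Of 54 cytosolic ribosomal protein genes 9 rose and 0 fell, and 52 had a positive log2 difference, with a median of 0.22. That share of rises was no higher than the 17.5% of all probe sets of mean log2 signal at least 4. The count grew to 17 without fasted replicate 1 and 15 without fasted replicate 3. Ribosomal protein genes have many near-identical pseudogenes, from which the array may not separate them. Among 33 aminoacyl-tRNA synthetases 5 rose and 1 fell, or 2 fell without fasted replicate 4. Their share of rises was no higher than that 17.5% either.

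Mitochondrial genes outside fat oxidation rose in part. Of 21 mitochondrial proteases, chaperones and translocase subunits 12 rose and 0 fell. Clpx, which unfolds substrates for the matrix protease ClpP, gave 7.02, 7.26, 7.17, 7.0 and 7.14 with food and 8.80, 8.79, 8.02, 8.43 and 8.52 after the fast. Tomm20, an import receptor of the outer membrane, rose 2.05-fold. In the citric acid cycle 10 of 17 genes rose and 0 fell, led by the fumarase gene Fh1 at 1.97-fold.

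About as many respiratory chain subunits rose as were not called. For complexes II to V 22 of 40 genes rose and 0 fell, with a median log2 difference of 0.32, including 2 of 4 for complex II, 6 of 9 for complex III, 5 of 10 for complex IV and 8 of 14 for complex V. Cycs, the cytochrome c that carries electrons and also triggers apoptosis, rose 1.59-fold, from 9.46 to 9.61 up to 9.93 to 10.45. Complex I had 16 of 36 genes higher and 34 with a positive difference (median 0.24). Log2 differences ran from -0.07 to 0.67 for complexes II to V and from -0.31 to 0.64 for complex I. These counts depend on single livers: without fasted replicate 4 they were 14 for complexes II to V and 9 for complex I, and for complex I also 10 without fed replicate 1, fed replicate 5, or fasted replicates 3 and 4 together. Without fasted replicate 4, 1 gene of complex I fell. Mitochondrial ribosomal proteins had 14 of 70 members higher and 1 lower, or 2 lower without fasted replicate 4. Their share of rises was near the 17.5% of all probe sets of mean log2 signal at least 4. Of 17 genes that shape mitochondria 7 rose, including the fusion gene Mfn2 (1.43-fold), or 4 without fed replicate 1, fasted replicate 1 or fasted replicate 4.

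**Figure D4:**
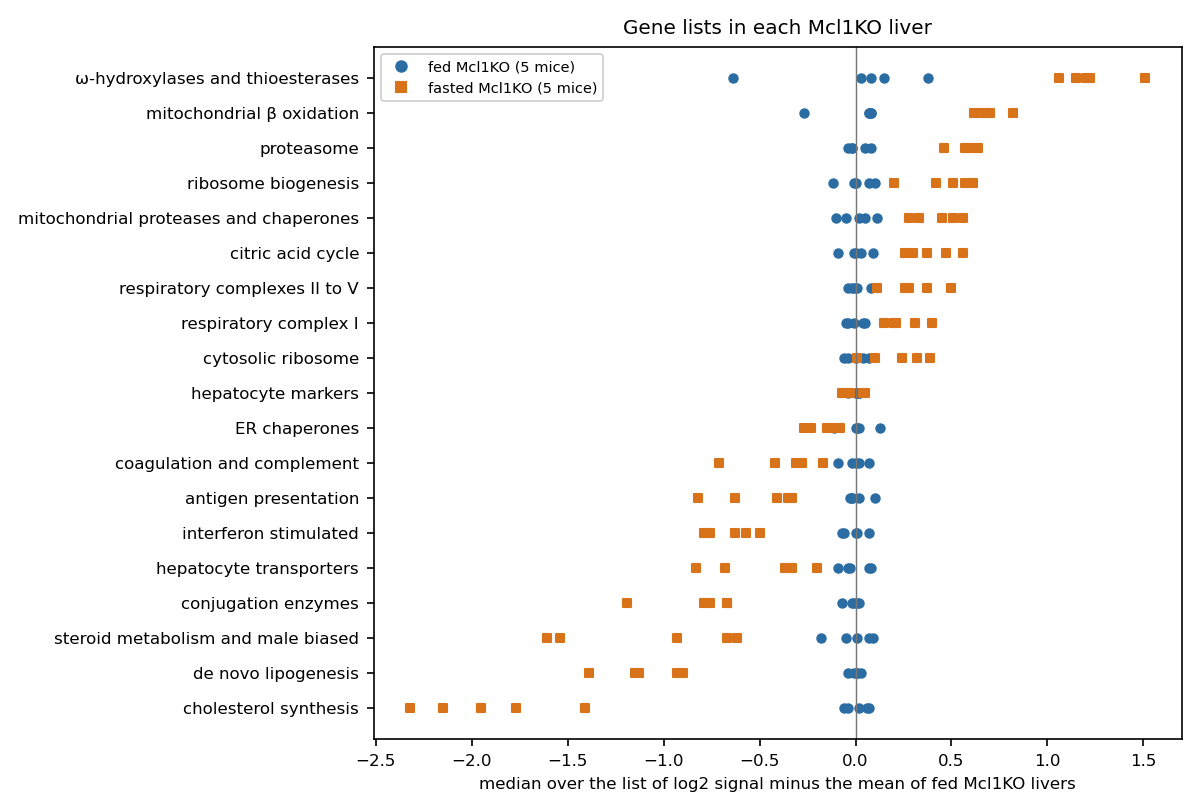
Median over each gene list of the log2 signal minus the mean of fed Mcl1KO livers (x axis), for the 5 fed (circles) and 5 fasted (squares) Mcl1KO livers. Cholesterol synthesis lies at -2.32 to -1.41 and the proteasome at 0.46 to 0.64 in fasted livers, and hepatocyte markers stay within -0.07 to 0.05.

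Autophagy genes rose in 9 of 28 members and fell in 2, or 1 without fed replicate 2 or fasted replicate 2 or 5. Ctsl, a lysosomal protease, went from 9.10 to 9.42 up to 10.94, 11.05, 10.30, 10.59 and 11.33, and Map1lc3b, which encodes the LC3 protein of the autophagosome, rose 2-fold. Bnip3 and Bnip3l, receptors that mark mitochondria for autophagy and belong to the BCL2 family, rose 2.33-fold and 1.92-fold. Bcl2l11, the pro-apoptotic BIM, rose 2.03-fold, with fasted replicate 4 (4.24) inside the fed range of 3.55 to 4.37. Those were the 3 rises among 17 BCL2 family genes, a share near the 17.5% of bright probe sets. In this list 0 fell, or 1 fell without fasted replicates 3 and 4. Bcl2l1, which encodes the related survival protein BCL-XL, was not called (log2 difference 0.44, SE 0.22, adjusted p = 0.237). It was called higher without fasted replicates 3 and 4 (log2 difference 0.73, adjusted p = 0.0299).

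Stress genes rose selectively. Of 18 glucocorticoid targets 10 rose and 0 fell, with Fkbp5, a chaperone that restrains the receptor, at 9.88, 9.89, 10.12, 9.93 and 9.78 in fasted against 7.28 to 8.08 in fed livers. Ddit4, an inhibitor of mTORC1, rose 6.79-fold. Among 17 p53 targets 5 rose and 0 fell, a list that includes Cdkn1a, itself also a glucocorticoid and PPARα target. Sesn1, a leucine-sensitive inhibitor of mTORC1, gave 7.76, 7.90 and 8.68 in fasted replicates 1, 2 and 5 but 5.59 and 5.74 in replicates 3 and 4, where fed livers lay at 5.22 to 5.68. Of 23 genes of the integrated stress response 6 rose and 0 fell, including its factors Atf5 (2.51-fold) and Atf4 (1.72-fold).

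Chaperones of the endoplasmic reticulum fell in 7 of 22 members and rose in 0. Hyou1, a large chaperone of the lumen, gave 8.64, 8.88, 8.64, 8.60 and 8.54 with food and 7.59, 7.98, 8.20, 8.15 and 7.82 after the fast. Pdia6, a disulfide isomerase, fell 1.64-fold and Sdf2l1 1.77-fold. Hspa5, which encodes the central chaperone BiP, was not called (log2 difference 0.26, SE 0.11, adjusted p = 0.141).

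Plasma proteins made by hepatocytes fell more often than they rose. Of 31 coagulation and complement genes 15 fell and 3 rose. All 5 measured members of the membrane attack complex fell, with C8a from 7.88 to 8.20 down to 5.87, 5.82, 6.17, 5.31 and 5.31, and C9 3.27-fold. The coagulation factor gene F11 fell 3.33-fold, and Pros1, which encodes the anticoagulant protein S, rose 2.2-fold. Acute phase genes had 10 of 27 lower and 5 higher, the latter share near the 17.5% of bright probe sets. Saa4, the constitutive serum amyloid A, fell 5.86-fold, from 10.54 to 11.36 down to 6.97 to 9.58, whereas Lbp, which binds bacterial lipopolysaccharide, rose 2.24-fold, from 8.12 to 8.34 up to 9.13 to 9.60. Saa2, an inducible form, fell 9.49-fold, and its fed signals were 9.06, 6.51, 6.78, 9.54 and 6.97, so that fed replicates 1 and 4 stood above the other 3. Serum amyloid genes are near copies of each other.

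Among secreted regulators, Angptl8, a feeding-induced inhibitor of lipoprotein lipase, fell 5.55-fold and Angptl4, its fasting-induced relative, rose 2.02-fold. For Angptl8 fasted replicate 4 (6.50) stayed within the fed range of 6.09 to 8.5, while the other fasted livers lay at 3.78 to 4.61. Lect2, a chemotactic hepatokine, fell 4.37-fold. Of 17 hepatokines 5 fell and 3 rose, the share of rises being near the 17.5% of bright probe sets.

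Genes of the circadian clock moved in both directions. Dbp, an output factor that peaks when the core activators have passed, gave 9.90, 9.89, 10.11, 9.98 and 9.91 with food and 6.36, 6.52, 9.01, 8.10 and 6.18 after the fast. Arntl, one of those activators, rose from 2.44 to 2.74 up to 5.67, 5.43, 4.12, 4.14 and 5.29. Replicates 3 and 4 had the smallest shift for both. Per3 fell 3.47-fold and Per1 rose 2.04-fold. In all 7 of 18 genes of the list fell and 3 rose, with rises near the 17.5% share of bright probe sets. The labels used here do not state the hour at which livers were taken, and its part in these values was not tested.

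Of 27 cell cycle genes 6 fell and 0 rose. Mki67 gave 3.56, 5.78, 3.66, 3.43 and 3.26 with food and 2.55, 3.09, 2.51, 2.67 and 2.84 after the fast, and fed replicate 2 stood above the other 4. Alad, the second enzyme of haem synthesis, fell 2.22-fold, and Hjv, the co-receptor that sets hepcidin, rose 2.06-fold. Of 23 genes of iron and haem 2 rose and 3 fell, or 5 fell without fasted replicate 3 or 4. In the full fit these shares were under or near the 17.5% and 12.3% of bright probe sets.

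Most markers of other liver cells were not called. Kupffer cells, the resident macrophages, had 3 of 14 markers lower and 1 higher. Cd5l fell 2.3-fold, from 7.21 to 7.70 down to 5.94, 5.41, 5.88, 7.13 and 6.56, while Vsig4, a complement receptor of these cells, was not called (log2 difference 0.32, adjusted p = 0.230). The mean log2 level of the list was 5.62 to 5.94 with food and 5.35, 5.31, 5.27, 5.94 and 5.82 after the fast, so replicates 4 and 5 kept the fed level. Without fasted replicate 4 the count of lower markers was 6, with or without replicate 3. The single higher marker was lost without fed replicate 1 or 2 or fasted replicate 1 or 5. Infiltrating myeloid markers had 1 of 13 higher, or 0 without fed replicate 1 or 5 or fasted replicate 2, and 0 lower.

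Sinusoidal endothelium, the fenestrated lining of the liver's vessels, had 4 of 16 markers higher and 0 lower. Lyve1, a hyaluronan receptor, gave 3.82, 4.57, 4.66, 3.94 and 4.49 with food and 6.03, 6.73, 5.73, 7.47 and 6.72 after the fast. Oit3 rose 1.8-fold and Mrc1, the mannose receptor, 1.44-fold. The list's mean level was 5.17 to 5.57 with food and 5.39 to 5.77 after the fast, which overlap. Of 15 stellate cell and fibroblast genes 2 rose and 2 fell, or 4 fell without fasted replicates 3 and 4. In the full fit neither share stood clear of the 17.5% and 12.3% of bright probe sets. A single rise was left without fed replicate 1, 3, 4 or 5 or fasted replicate 2, 3 or 4. The falls included the collagen gene Col3a1, which fell 3.26-fold from 3.88 to 5.41 down to 2.15 to 2.81.

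In WT livers the same fast called 1507 probe sets (6.79%), 689 higher (3.1%) and 818 lower (3.68%), and among probe sets of mean log2 signal at least 4 the shares were 6.7% and 7.57%. A larger count in Mcl1KO livers does not show that single genes responded differently, which is the question of the interaction, the Mcl1KO fasting effect minus the WT one. Limma called 30 probe sets for it (0.135%). The interaction was positive for 18 of them (0.0811%) and negative for 12 (0.054%). The positive share of 60% became 48.6% (17 of 35) after quantile normalisation and 71.1% (27 of 38) after median centring. An unadjusted limma p under 0.05 was reached by 2477 of 22206 probe sets, more than the share of 0.05 that would be reached if no probe set differed. A small number of calls therefore does not show that the 2 responses were equal. Of the 1012 probe sets called in both genotypes, 1011 went the same way. The exception was Mrc1, which rose in Mcl1KO (log2 difference 0.52) and fell in WT livers (-0.48). The interaction count depended on single livers. It was 331 without fasted Mcl1KO replicate 3, 62 without fasted Mcl1KO replicate 4 and 765 without both. It was 9 without fasted WT replicate 2, 13 without fasted Mcl1KO replicate 5, and 15 to 19 without fed WT replicate 2 or 5, fasted WT replicate 3, fed Mcl1KO replicate 3 or 5, or fasted Mcl1KO replicate 2.

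Of the probe sets called in Mcl1KO livers 20 were also called for the interaction. Cidec rose by 4.66 in Mcl1KO and 1.92 in WT livers (interaction 2.74, SE 0.50, adjusted p = 0.022, and 2.62 with adjusted p = 0.0501 without fasted WT replicate 2). Rab30, a Golgi GTPase, went from 4.28, 4.33, 4.78, 5.30 and 5.75 to 9.33, 9.60, 7.35, 7.84 and 8.62 in Mcl1KO livers, while its WT difference was 0.62 (adjusted p = 0.433, interaction 3.04, adjusted p = 0.022). Nlrp12, a receptor that damps NF-κB signalling in myeloid cells, rose from 1.92 to 2.25 up to 4.15 to 5.50, with an interaction of 2.02 (adjusted p = 0.00842). Each of these rises was therefore called larger in Mcl1KO livers at the threshold of 0.05. Of the 8 called interactions of genes discussed here, 1 kept its call under every alternative setting, and none changed sign.

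On the falling side, Hsd3b2 differed most between the genotypes (-3.83 in Mcl1KO and -1.06 in WT livers, interaction -2.77, SE 0.34, adjusted p = 0.000329). Hsd3b5, of the same family, showed no such difference (interaction -0.08, SE 0.25, adjusted p = 0.950). Fdft1, the squalene synthase, fell by 1.76 in Mcl1KO and 0.54 in WT livers (interaction -1.22, adjusted p = 0.0163) and was the only cholesterol gene called, although 15 of 16 had a negative interaction with a median of -0.94. Hyou1 fell in Mcl1KO livers and had a WT difference of 0.33 (interaction -1.04, adjusted p = 0.022). That call was lost without fasted WT replicate 2 (-1.03) or fasted Mcl1KO replicate 5 (-1.01).

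**Figure D5:**
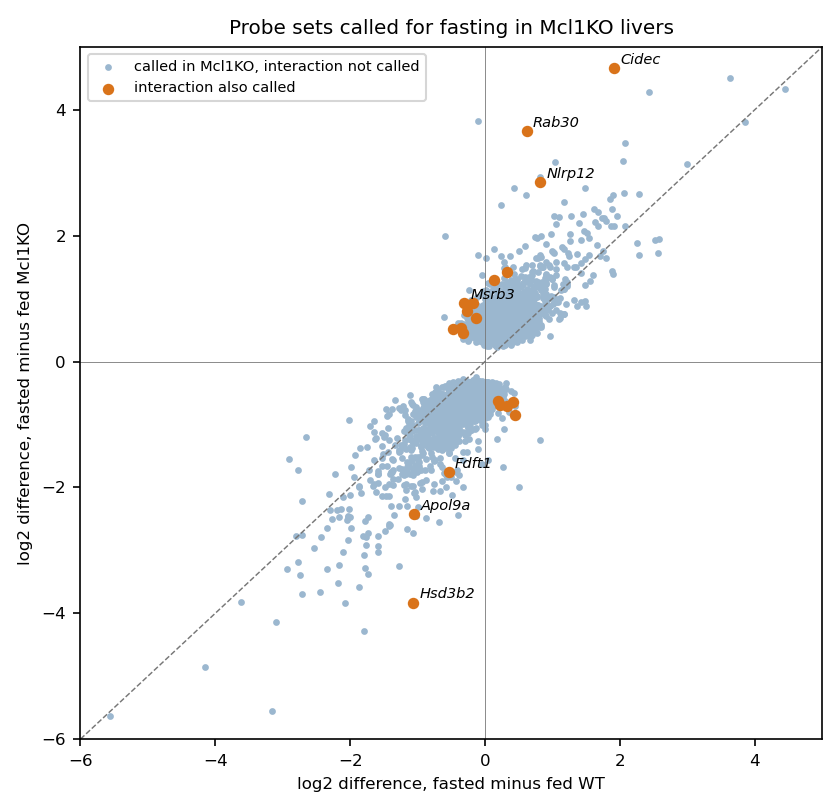
Log2 difference between fasted and fed livers in WT (x axis) and Mcl1KO mice (y axis) for the 3208 probe sets called in Mcl1KO livers. Orange points are the 20 also called for the interaction, and the dashed line marks equal differences. Cidec, Rab30 and Nlrp12 lie above the line and Hsd3b2 below it.

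For most groups above the interaction called no member, and a larger response in Mcl1KO livers was not shown gene by gene. Proteasome subunits had 9 of 30 called higher in WT livers (median log2 difference 0.25, against 0.60 in Mcl1KO), and 29 of 30 had a positive interaction with 0 called. In WT livers the list median, relative to fed WT, was 0.36, 0.29, 0.36, -0.13 and 0.44, so fasted WT replicate 4 alone was not raised. Ribosome biogenesis had 1 of 37 higher in WT (median 0.19, against 0.53) and 0 called for the interaction. Lepr had a WT difference of -0.10 and the largest interaction of the genes discussed here, 3.93 (SE 0.93), which missed the threshold (adjusted p = 0.0828), as did Srebf2 (-1.01, adjusted p = 0.0598).

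Other genes moved by nearly equal amounts in both genotypes. Elovl6 differed by -2.76 in Mcl1KO and -2.72 in WT livers, Apoa4 by 3.14 and 3.0, Cdkn1a by 3.81 and 3.86, Fkbp5 by 2.15 and 2.08, and Lpin1 by 1.68 and 1.71. The interaction of Elovl6 was -0.03 (SE 0.27) and that of Cdkn1a -0.05 (SE 0.62), so the latter leaves room for a sizeable difference. Pck1 rose in WT livers (0.65, adjusted p = 8.90e-05) and was not called in Mcl1KO livers, but the interaction was not called (-0.53, adjusted p = 0.101). Markers of sinusoidal endothelium had 1 of 16 called higher and 4 lower in WT livers, and 15 of 16 had a positive interaction, of which 1, Mrc1, was called. For Kupffer markers 13 of 14 were positive and 1, Vsig4, was called (interaction 1.26, adjusted p = 0.022). The call of Vsig4 was lost without fed WT replicate 5 (1.23), fasted WT replicate 2 (1.19) or fasted Mcl1KO replicate 5 (1.22), and that of Mrc1 without fed WT replicate 5 (0.94) or fasted WT replicate 2 (0.99).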

How the data were processed

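RNA of 20 livers was read on Affymetrix arrays, from total RNA extracted with Trizol and labelled with the WT PLUS kit, per the labels. For each array the authors deposited 1 log2 signal per probe set, made by RMA (background correction, quantile normalisation and summary of probes) with Partek 7.0, per the submitters' processing notes. The log base is not stated and was taken as 2 from the range of 1.34 to 12.56. RMA removes shifts shared by a whole array, and 5 arrays per group limit the precision. Genes were named from the platform annotation: 19572 of 22206 probe sets had 1 symbol, 0 had several and 2634 had none. The brightest probe set stood for each of the 55 genes with several. The part of Mcl1 that its probe set covers is not known here.

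Limma 3.58.1 in R 4.3.3 fitted 1 mean per group to all 20 arrays. Benjamini-Hochberg adjusted p-values under 0.05 over all probe sets are calls, and adjusted p-values in the text come from this fit. P-values set each difference against the spread among samples within groups, estimated over all groups, WT included. With only the Mcl1KO arrays in the fit, 2717 probe sets were called. On simulated data with 200 changed probe sets, 38.8%, 91% and 100% of changes of 0.5, 1 and 2 log2 units in Mcl1KO were recovered, with 5 false calls. The simulation drew independent noise of the same spread in every group. In the data, fasted Mcl1KO livers varied more and far more probe sets were called, so these rates may not carry over. Alternatives covered scaling, variance moderation, weighting of arrays, leaving out dim probe sets, a minimum fold, the threshold, a replicate block, the arrays in the fit and each array left out.

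The comparison and the 64 gene lists, with 1246 of 1388 symbols measured, were chosen with earlier results of these data known. Named genes were drawn from the 20 largest rises and falls without overlap and up to 4 called members per list and direction (2 of a list with none called). Genes called for both the interaction and fasting in Mcl1KO livers were added, as was Mcl1. Not all are discussed. Among those called for the interaction, Msrb3, Tbc1d15, Csnk1e, Ddx28, Tor3a, Timm17a, Apol9a, Ropn1l, Wwc1 and Srrt are left out. Chosen after their values were seen were Abcb11, Acot3, Acot4, Adipoq, Akr1c14, Atf4, Bcl2l1, Cpt1a, Cpt2, Cyp4a10, Cyp7a1, Etfdh, Fgf21, G6pc, Hadhb, Hilpda, Hmgcs1, Hsd17b7, Hsd3b3, Hspa5, Igf1, Igfbp2, Isg15, Pck1, Psma1, Psma4, Psmb1, Psmb9, Srebf2, Stat2 and Vsig4. Promoter windows came from RefSeq (GRCm38.p6, 27025 genes). Plots used Python 3.11.15 and matplotlib 3.10.9.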

Additional observations from a re-analysis of the deposited data

Results flagged for a closer look

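Single livers stood apart from the other 4 of their group for the following genes, by Dixon's test, which flags about 5% of groups by chance. They were 19 of 386 groups tested (4.92%), no more than that share. Fed Mcl1KO replicate 1 was low for Acadm (7.31), Atf4 (7.34), Hadhb (8.74), Serpina6 (8.08) and Slco1a4 (6.60). Fed replicate 2 was high for Apoa4 (10.34), Col3a1 (5.41), Mki67 (5.78) and Ppargc1a (7.01) and low for Hsd3b5 (8.60). Fed replicate 3 was low for Gpt2 (8.63) and Slc16a6 (2.54), fed replicate 4 low for Bcl2l1 (5.44) and fed replicate 5 high for Mrc1 (6.48). Among fasted livers, replicate 2 was low for Abcg8 (6.77) and Serpina6 (3.60), replicate 3 high for Nxpe2 (5.05) and Sqle (4.14), and replicate 4 low for G6pc (9.39).

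Among the genes discussed here, limma called the interaction for Rab30 (3.04), Cidec (2.74), Nlrp12 (2.02), Vsig4 (1.26) and Mrc1 (1.0), where the fasting effect was more positive in Mcl1KO livers. It was more negative there for Hsd3b2 (-2.77), Fdft1 (-1.22) and Hyou1 (-1.04).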

How the results depend on the processing

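Among the 3208 probe sets called for fasting in Mcl1KO livers, the count fell to 1212 with a minimum fold of 1.2 and 2045 at an adjusted p under 0.01, and ran from 2689 to 3418 when each array was left out. In WT livers the count of 1507 fell to 437 and 814 under the same settings and ran from 1124 to 1467. The interaction count of 30 was the least stable. It was 3 without variance moderation, 55 with array weights, 4 with a minimum fold of 1.2, 54 among probe sets of mean log2 signal at least 4, 6 at an adjusted p under 0.01, and 9 to 331 when each array was left out. Without fasted Mcl1KO replicates 3 and 4 together, an alternative added after the data were seen, it was 765. Those livers were picked as the fasted ones nearest to the fed, so a larger count was favoured by that choice. The causes were not tested.

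With the replicate number as a replicate block the counts were 3045, 1375 and 20. Over all probe sets, same-numbered fed and fasted arrays did not deviate together (r = 0.00 to 0.07 in Mcl1KO and -0.11 to 0.03 in WT). A pairing that touched only some genes might not show in these values. Uncalled differences changed sign in 4 genes. Hsd17b7 was at 0.06 without fasted Mcl1KO replicates 3 and 4. Leaving out each array gave -0.05 to 0.11 for Adipoq, -0.22 to 0.03 for G6pc and -0.04 to 0.12 for Mcl1. Probe sets near the array's floor or top, as Cyp4a10, may understate a change.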
